A study of Mus musculus with 24 samples.

Results

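Sertoli cells of the mouse fetal testis were compared between the embryonic stages E13.5 and E15.5 (embryonic day after mating) across all genes, in 6 of the 24 libraries of the series, 3 for each stage. Both groups were XY cells of the SOX9-IRES-GFP mouse line, labelled as Sertoli cells of fetal gonads and collected by fluorescence-activated sorting, and no other allele, agent or strain is named for them. The reporter carries the name of Sox9, so the level of Sox9 is tied to how the cells were picked. The remaining libraries are XY cells of the same line at E11.5 and E12.5, and XX pre-granulosa cells, the supporting cells of the fetal ovary, of the Tg(Enh8-mCherry) line at the same 4 stages, with 3 libraries in each group. The XX libraries at E13.5 and E15.5 served to ask whether a change between these stages also occurred in the supporting cells of the other sex. Sex, mouse line and fluorophore differ together in that comparison and cannot be told apart. Each library came from about 40000 sorted cells, as stated in the protocol. The labels do not say whether replicates were separate animals or pools, so the p-values measure only a spread between libraries. That spread was estimated for each gene over all 24 libraries, not from the 6 compared ones alone.

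Sertoli cells are the somatic supporting cells of the testis. In the fetus they are set up by SRY and SOX9, enclose the germ cells in cords, secrete anti-Müllerian hormone and Desert hedgehog, and divide; the size of this population later limits sperm output. Their further maturation brings the receptor for follicle-stimulating hormone, inhibin, secreted carriers and proteases, and tight junctions, which close into the blood-testis barrier only after birth.

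The labelled cell type was checked against Sertoli markers. Amh, which encodes anti-Müllerian hormone, was measured at 5117, 4302 and 5046 CPM at E13.5 and 4309, 4377 and 4279 CPM at E15.5, where CPM are counts scaled to library size (edgeR's cpm) and the values are those of replicates 1, 2 and 3. XX cells at E13.5 held 0.113 ± 0.16 CPM of it (mean ± SD, n = 3). Dmrt1, a regulator of male cell fate, was at 117, 126 and 136 CPM at E13.5 and 116, 99.4 and 109.7 CPM at E15.5. The 3 markers given for these cells, Fshr, Col9a1 and Myo7a, were each detected in all 6 libraries. Foxl2, the defining factor of pre-granulosa cells, had no count in 5 of the 6 libraries and 0.172 CPM in E15.5 replicate 2, against 20.4 ± 3.15 CPM in XX cells at E13.5.

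The 6 libraries held 19316255, 27261806 and 30696512 counts at E13.5, and 24487268, 18756072 and 16801691 counts at E15.5. Spearman correlations between libraries of a stage were 0.994 to 0.996, and those between stages 0.975 to 0.981. A count of 3, used as the floor, is worth between 0.107 and 0.19 CPM, and intervals and floors cover counting error only, since amplified reads without molecular identifiers are not independent molecules. E13.5 replicate 1 stood apart: over the genes called between the stages it was the E13.5 library nearest to the E15.5 mean for 1641 genes (47.6%), against 982 and 825 for replicates 2 and 3. It also held the most cell-division RNA of the E13.5 libraries, and the values that rest on it are given below with and without it. Among the E15.5 libraries, replicate 1 was nearest to the E13.5 mean for 1351 genes (39.2%), against 1002 and 1095 for replicates 2 and 3.

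Of 16190 genes tested, 3448 (21.3%) were called, which means a Benjamini-Hochberg adjusted p under 0.05 in edgeR's quasi-likelihood test. At E15.5, 1863 genes (11.51%) were higher and 1585 (9.79%) lower, and the median log2 change over all genes tested was 0. An absolute log2 change of at least 1 was also met by 1396 genes (8.623%). Replicates were so close that the 3 libraries of one stage did not overlap the 3 of the other for 8027 genes (49.58%), so absence of overlap was common over all genes. Lists of genes are read below against these shares. In the plot of calls by list, the cell-division and cartilage lists lie farthest from them on the higher and the lower side.

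**Figure D1:**
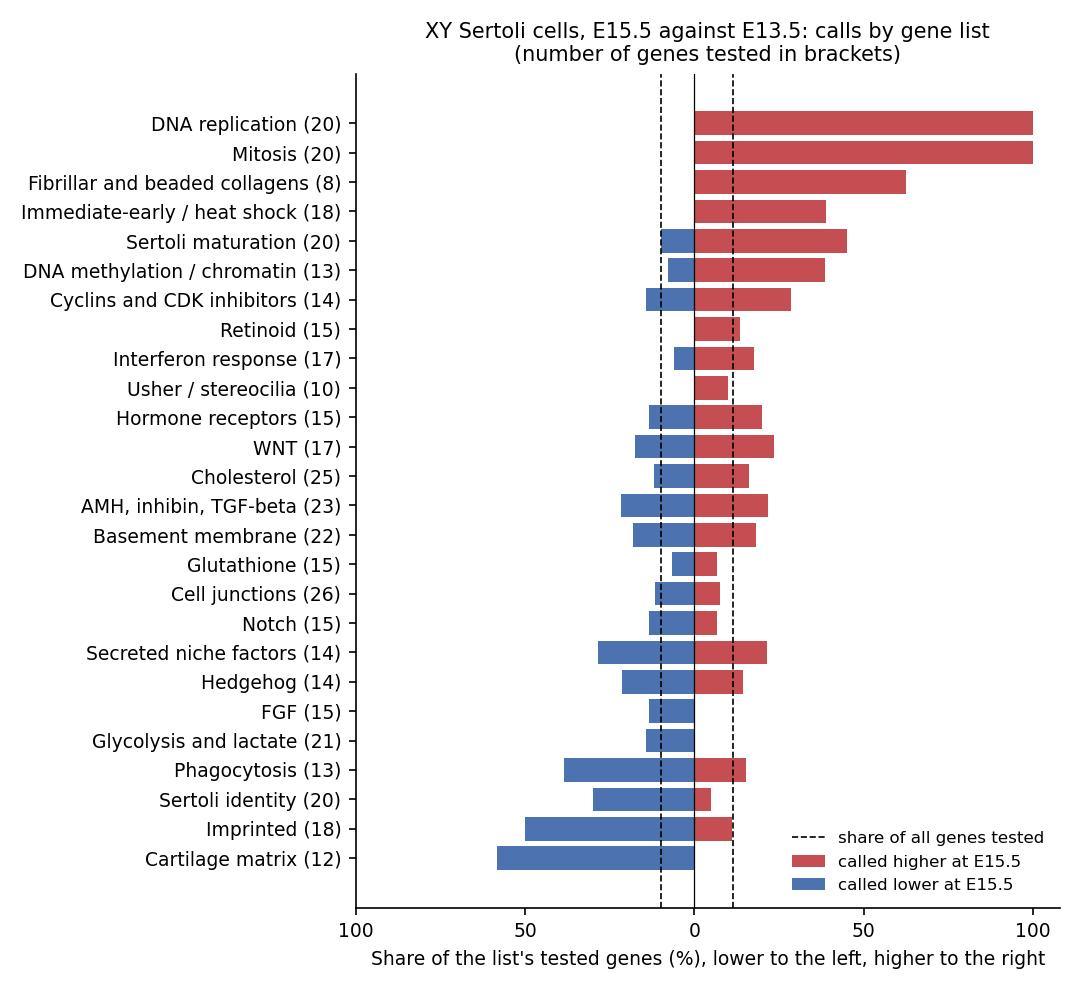
Share of the tested genes of each list called higher (to the right) or lower (to the left) at E15.5 in XY Sertoli cells, in percent, with the number tested in brackets and dashed lines at the shares of all genes tested, 11.51% higher and 9.79% lower. All 20 mitosis and all 20 DNA replication genes were called higher, and 7 of 12 cartilage genes were called lower.

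Markers of other cells of the testis were read before the lists, because a sort can retain a few of them. In bulk RNA, more cells of a type and more RNA per cell cannot be told apart. Of the germ cell markers, 10 of 11 tested were higher at E15.5 and none lower, and their summed level was 38.4, 43.9 and 41.3 CPM at E13.5 and 93.2, 145 and 116 CPM at E15.5. Mael, which works in the germ line piRNA pathway, rose from 0.0553, 0.239 and 0.107 CPM at E13.5 to 6.38, 13 and 9.05 CPM at E15.5 (log2 change 6.03, SE 0.73, adjusted p 5.3e-06), or by 6.67 on the log2 scale without E13.5 replicate 2. The translational regulator Dazl went from 0.719, 1.28 and 0.572 CPM at E13.5 to 7.16, 10.9 and 8.35 CPM at E15.5 (log2 change 3.35, SE 0.49, adjusted p 4.23e-05). The E15.5 libraries lay above the E13.5 libraries for both, and E15.5 replicate 2 was the highest of the 3. Nanos2, a marker of male germ cells, did not pass the filter, with at most 16 counts in any of the 6 libraries.

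Interstitial markers were higher for 7 of 9 tested, with summed levels of 24.3, 24.5 and 27.3 CPM at E13.5 and 144, 188 and 159 CPM at E15.5. Pdgfra, the PDGF receptor of stromal cells, went from 2.76, 2.43 and 3.25 CPM at E13.5 to 8.16, 11.51 and 6.08 CPM at E15.5 (log2 change 1.60, SE 0.32, adjusted p 0.00117). Tcf21, a stromal transcription factor, went from 0.608, 0.359 and 0.536 CPM at E13.5 to 2.95, 4.43 and 3.99 CPM at E15.5 (log2 change 2.92, SE 0.53, adjusted p 0.000446). Nr2f2, a further gene of the list, was at 4.35 ± 0.737 CPM at E13.5 and 5.89 ± 1.56 CPM at E15.5 and was not called. Erythroid markers were higher for 3 of 9, all of them globin genes, and the sum was 41.5, 61.2 and 45.3 CPM at E13.5 and 166, 190.5 and 249.6 CPM at E15.5. Fetal Leydig cell markers were higher for 4 of 6, but their summed level, 85.7, 89.7 and 85.1 CPM at E13.5 and 60.4, 103 and 72.2 CPM at E15.5, overlapped. Hsd3b1, a gene of this list with a large part of its sum, went the other way. It was at 60.9 ± 1.92 CPM at E13.5 and 33.2 ± 3.07 CPM at E15.5 and was not called. Cyp17a1, an enzyme of androgen synthesis, had 4.77, 14.7 and 7.28 CPM at E15.5, and its log2 change of 2.19 was 1.60 without E15.5 replicate 2. Insl3, a Leydig cell hormone, changed by 3.56 on the log2 scale, by 4.55 without E13.5 replicate 2 and by 2.95 without E15.5 replicate 2.

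The peritubular myoid list had 1 of 6 genes called higher, Acta2, at 0.94, 0.677 and 1.04 CPM at E13.5 and 7.38, 6.96 and 8.54 CPM at E15.5, whose adjusted p of 0.0109 was 0.0503 without E13.5 replicate 2. Immune markers summed to at most 1.08 CPM in any library and none of 10 was called, and Ptprc, the pan-leukocyte antigen, had no count in 5 of 6 libraries. The summed level of endothelial markers was 37.2, 34.2 and 34.8 CPM at E13.5 and 38.3, 37.4 and 38.2 CPM at E15.5, with 2 of 8 genes higher and 2 lower. The sum over surface epithelium markers was 23.3, 22.7 and 23.8 CPM at E13.5 and 19.7, 18.7 and 21.5 CPM at E15.5, with 1 of 7 genes called higher, none lower and a median log2 change of 0.76. Most of that sum was Krt7, a keratin gene, at 22.2, 21.7 and 22.3 CPM at E13.5 and 15.1, 14.1 and 17.7 CPM at E15.5, which was not called (adjusted p 0.175), though it was with the 6 compared libraries alone (0.00131) or the 12 XY libraries alone (0.017). The gene called higher was Upk3b, a uroplakin gene of mesothelium, at 0.221, 0.0797 and 0.465 CPM at E13.5 and 2.73, 3.09 and 2.53 CPM at E15.5 (adjusted p 0.0163, or 0.0718 without E13.5 replicate 2 and 0.155 by limma on log2(TPM + 1)). Endothelial sums thus lay within a few CPM of each other, although they too were higher in each E15.5 library. The sums of germ, interstitial, erythroid and myoid markers were higher in each E15.5 library.

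**Figure D2:**
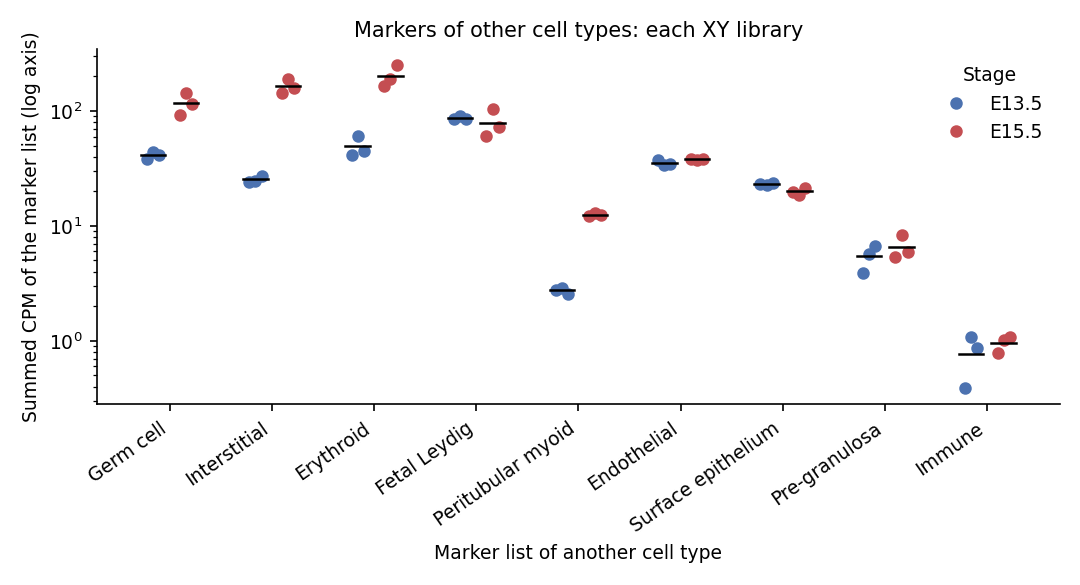
Summed CPM (log axis) of marker lists of other cell types in each XY library, E13.5 in blue and E15.5 in red, with black lines at the means of 3 libraries. The germ cell, interstitial, erythroid and peritubular myoid sums are higher in all 3 E15.5 libraries than in all 3 E13.5 libraries, while the fetal Leydig, pre-granulosa and immune sums overlap. The endothelial sums are also higher at E15.5 but close, at most 37.2 CPM at E13.5 and at least 37.4 CPM at E15.5. The surface epithelium sums are lower in all 3 E15.5 libraries.

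Genes of cell division were higher at E15.5. All 20 genes of the mitosis list were called higher, against 11.51% of all genes tested, with a median log2 change of 1.64, and their summed level was 1596, 1165 and 1004 CPM at E13.5 and 3678, 3577 and 3606 CPM at E15.5. Top2a, the topoisomerase that untangles chromosomes before division, was measured at 200.05, 122 and 95.4 CPM at E13.5 and 521, 508 and 498 CPM at E15.5 (log2 change 1.87, SE 0.35, adjusted p 0.000626). Mki67, the common proliferation marker, was at 48.7, 33 and 25.8 CPM at E13.5 and 129.6, 125 and 126 CPM at E15.5 (log2 change 1.83, SE 0.40, adjusted p 0.00223). Ccnb1, the mitotic cyclin, rose by 1.73 on the log2 scale, in which all changes are given (SE 0.32, adjusted p 0.000618), and Cdk1, the kinase it activates, by 1.39 (SE 0.21, adjusted p 7e-05). At E13.5, replicate 1 was the highest library for all of these, and the 3 E15.5 libraries lay close together above it. Without E13.5 replicate 1, the log2 change of Top2a was 2.20 and that of Mki67 2.08, and all 20 genes were called. The smallest rise was that of Tpx2, a spindle factor, at 0.96 (adjusted p 0.023), whose adjusted p lay between 0.0581 and 0.0975 when any 1 library other than E13.5 replicate 1 was left out.

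The mitosis sums of the 3 E15.5 libraries, 3678, 3577 and 3606 CPM, lay too close together to be ranked against their germ cell marker sums. How much of the cell-division RNA came from other cells was not tested. In XY cells of the earlier stages, the mitosis sum was 1434 to 2356 CPM at E11.5 and 1486 to 2926 CPM at E12.5, so that the E15.5 libraries were the highest of the 4 stages.

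Genes of DNA replication moved the same way. All 20 were called higher, with a median log2 change of 0.95, and their sums were 2149.6, 1955 and 1813 CPM at E13.5 and 3636, 3582 and 3701 CPM at E15.5. Subunits of the MCM helicase, which opens replication origins, were among the steadiest. Mcm2 was at 197, 197 and 185 CPM at E13.5 and 367, 369 and 382 CPM at E15.5 (log2 change 0.95, SE 0.11, adjusted p 4.99e-06). Mcm6 was at 329, 298 and 288 CPM at E13.5 and 526, 514 and 529.8 CPM at E15.5 (log2 change 0.78, SE 0.083, adjusted p 1.01e-06). Mcm7 was at 219, 194 and 192 CPM at E13.5 and 321, 308 and 325 CPM at E15.5 (log2 change 0.66, SE 0.072, adjusted p 1.6e-06). Pcna, the sliding clamp of the polymerases, was at 130.5, 120.3 and 110.3 CPM at E13.5 and 235, 239.7 and 243 CPM at E15.5 (log2 change 0.99, SE 0.11, adjusted p 1.43e-06). The E15.5 libraries lay above the E13.5 libraries for each. E2f1, an activator of S-phase genes, and Ccne1, the cyclin of S-phase entry, were lower in level and rose by 0.99 (adjusted p 0.000929) and 0.77 (adjusted p 0.00274).

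Because these genes moved together, their promoters were searched for 3 elements known from cell-cycle genes and 2 elements known from signal-induced genes, on both strands of the 250 bases before the start. The cell-cycle elements were the CCAAT box (CCAAT), the cell-cycle homology region (TTTGAA) and the E2F site (TTTGGCGC, TTTCGCGC, TTTCCCGC or TTTGCCGC). The others were the cAMP response element (TGACGTCA) and a single exact form of the serum response element. RefSeq windows of build GRCm38.p6 were matched by symbol for 16 of the 20 mitosis genes and 16 of the 20 replication genes (17 windows). The CCAAT box was found in 14 of 16 mitosis windows (87.5%) and in 12 of 17 replication windows (70.6%), against 33.8% of all 32851 windows. The cell-cycle homology region was found in 7 mitosis windows (43.8%) and 2 replication windows (11.8%), against 16% of all. The E2F site was found in 1 mitosis window (6.25%) and 5 replication windows (29.4%), against 1.86% of all. The cAMP response element was found in 1 mitosis window (6.25%) and 1 replication window (5.88%), against 1.55% of all, and that form of the serum response element in none, against 0.0609% of all. The same search covered 18 windows of the cartilage list and 18 of the immediate-early list, both described further on. There the CCAAT box was found in 38.9% and 50% of windows, the homology region in 22.2% and 5.56%, the E2F site and the serum response element in none, and the cAMP response element in none and 11.1%. A match describes letters in a window and is not a measured binding site.

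The promoters of 5 genes are printed 5′ to 3′ on the strand of the gene, which is the minus strand for each, with the matched letters of the 3 cell-cycle elements in capitals (a CCAAT box on the other strand reads ATTGG, and a cell-cycle homology region TTCAAA). They were picked after the search, as 3 mitosis genes and 2 replication genes whose windows hold a homology region or an E2F site. The windows of Ccnb1, Pcna, E2f1 and Ccne1 hold neither. Cdc20, the activator of the anaphase-promoting complex, rose by 1.10 (adjusted p 0.00159). Cdc20 (chr4:118437344-118437593) has 2 CCAAT boxes and 1 homology region, Cdk1 (chr10:69352913-69353162) has 3 CCAAT boxes, 2 homology regions and 1 E2F site, and Top2a (chr11:99024190-99024439) has 6 CCAAT boxes and 2 homology regions. Mcm6 (chr1:128359706-128359955) has 2 CCAAT boxes and 3 E2F matches, of which 1 pair overlaps, and Mcm7 (chr5:138171884-138172133, 1 of its 2 windows) has 2 CCAAT boxes and 1 E2F site.
Cdc20: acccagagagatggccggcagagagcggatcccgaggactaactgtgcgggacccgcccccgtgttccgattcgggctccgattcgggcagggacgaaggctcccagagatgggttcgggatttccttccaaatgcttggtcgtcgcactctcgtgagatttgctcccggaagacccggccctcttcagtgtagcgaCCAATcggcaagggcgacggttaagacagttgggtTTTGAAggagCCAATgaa
Cdk1: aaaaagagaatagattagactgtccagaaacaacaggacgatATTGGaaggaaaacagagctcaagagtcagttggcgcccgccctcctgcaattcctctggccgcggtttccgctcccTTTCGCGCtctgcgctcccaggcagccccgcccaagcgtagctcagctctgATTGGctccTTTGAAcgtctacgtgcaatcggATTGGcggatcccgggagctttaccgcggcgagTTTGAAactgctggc
Top2a: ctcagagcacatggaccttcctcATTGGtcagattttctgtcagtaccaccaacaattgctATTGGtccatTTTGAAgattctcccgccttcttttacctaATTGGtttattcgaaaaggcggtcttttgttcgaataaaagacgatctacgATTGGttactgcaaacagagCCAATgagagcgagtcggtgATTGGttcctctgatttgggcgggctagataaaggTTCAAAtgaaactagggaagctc
Mcm6: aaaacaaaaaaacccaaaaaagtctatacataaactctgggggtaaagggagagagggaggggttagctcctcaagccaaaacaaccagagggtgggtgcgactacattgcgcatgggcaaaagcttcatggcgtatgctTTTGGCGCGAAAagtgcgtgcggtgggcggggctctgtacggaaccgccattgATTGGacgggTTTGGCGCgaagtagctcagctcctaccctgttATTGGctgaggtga
Mcm7: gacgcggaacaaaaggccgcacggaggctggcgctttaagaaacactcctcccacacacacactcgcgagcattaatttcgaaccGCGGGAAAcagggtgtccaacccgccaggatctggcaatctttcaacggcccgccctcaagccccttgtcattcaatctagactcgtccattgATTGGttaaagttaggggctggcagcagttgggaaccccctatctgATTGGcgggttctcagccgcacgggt

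Cyclins and inhibitors of cyclin-dependent kinases did not move as a group, with 4 of 14 higher and 2 lower. Ccnd2, a D-type cyclin that drives G1, was measured at 382, 409 and 411 CPM at E13.5 and 1255, 1249 and 1332 CPM at E15.5 (log2 change 1.67, SE 0.10, adjusted p 3.18e-10). Ccnd1, its relative, was at 48.7, 47.1 and 42.3 CPM at E13.5 and 12.8, 11.7 and 12.6 CPM at E15.5 (log2 change -1.90, SE 0.16, adjusted p 1.02e-07). The stages did not overlap for either, and the changes were opposite in sign. Ccnd3, the remaining D-type cyclin, was at 256, 246 and 246 CPM at E13.5 and 260.3, 262 and 271 CPM at E15.5 and was not called (adjusted p 0.766). In the deposited TPM values, which are scaled for transcript length, Ccnd2 was at 354 ± 25.8 at E13.5 and 1232 ± 79.8 at E15.5, Ccnd1 at 26.1 ± 1.86 and 6.29 ± 0.746, and Ccnd3 at 196 ± 6.15 and 209.7 ± 4.49.

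Cdkn1c, an imprinted inhibitor of cyclin-dependent kinases, was at 34.3, 116 and 136 CPM at E13.5 and 15.4, 15.2 and 9.43 CPM at E15.5 (log2 change -2.83, SE 0.59, adjusted p 0.00175). E13.5 replicate 1 was far below the other 2 libraries of its stage and still above the 3 of E15.5, and the log2 change was -3.25 without it. Cdkn1a, the p53-responsive inhibitor, rose from a low level, with 2.43, 2.87 and 2.39 CPM at E13.5 and 4.51, 3.99 and 5.19 CPM at E15.5 (log2 change 0.82, SE 0.19, adjusted p 0.00268). Rbl1, a pocket protein of the retinoblastoma family, rose by 0.88 (adjusted p 0.00434), and Cdkn2b, an inhibitor of the kinases of D-type cyclins, by 1.81 (adjusted p 0.012, or 0.0505 without E13.5 replicate 2) from under 1 CPM. Cdkn1b, the inhibitor p27, was at 14.5, 14.5 and 14.8 CPM at E13.5 and 14.6, 20.4 and 14 CPM at E15.5 and was not called.

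Genes of Sertoli maturation were called higher more often than lower. Of 20 tested, 9 were called higher and 2 lower, with a median log2 change of 0.82 beside 0 for all genes tested, and their sums were 10951, 10978 and 11220.5 CPM at E13.5 and 16384, 15948 and 16704 CPM at E15.5. Fshr, the receptor of follicle-stimulating hormone, was measured at 8.68, 9.92 and 8.83 CPM at E13.5 and 42, 41.4 and 44.7 CPM at E15.5 (log2 change 2.22, SE 0.20, adjusted p 7.81e-07). Its 3 E15.5 libraries were 4.67-fold above those of E13.5 in their mean, with no overlap. In XY cells it had been at 0.0528 ± 0.0263 CPM at E11.5 and 3.08 ± 0.515 CPM at E12.5, and in XX cells at E15.5 it had no count.

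Serpina5, an inhibitor of serine proteases secreted by cells of the male tract, was at 75.7, 93.6 and 93 CPM at E13.5 and 364, 367 and 398 CPM at E15.5 (log2 change 2.10, SE 0.26, adjusted p 2.21e-05). Hsd17b1, which reduces estrone and androstenedione, was at 73.2, 79.1 and 75.8 CPM at E13.5 and 242, 233 and 250.5 CPM at E15.5 (log2 change 1.67, SE 0.15, adjusted p 1.11e-07). Ocln, the tight junction protein occludin, was at 2.32, 3.79 and 3.61 CPM at E13.5 and 19.4, 18.9 and 17 CPM at E15.5 (log2 change 2.49, SE 0.55, adjusted p 0.00244). Each of these 3 genes had all its E15.5 libraries above all its E13.5 libraries. The protease gene Ctsl was at 1113, 891 and 896 CPM at E13.5 and 1898, 1706 and 1701 CPM at E15.5 (log2 change 0.87, SE 0.12, adjusted p 2.41e-05). Inha, the alpha subunit of inhibin, was at 569.7, 646 and 625 CPM at E13.5 and 1064, 1095 and 1198 CPM at E15.5 (log2 change 0.87, SE 0.10, adjusted p 2.79e-06). Myo7a, an unconventional myosin of Sertoli cells and hair cells, was at 195, 196 and 209 CPM at E13.5 and 392, 360.2 and 375 CPM at E15.5 (log2 change 0.91, SE 0.092, adjusted p 5.27e-07).

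Clu, the secreted chaperone clusterin, had the highest level of the list per transcript length, at 3795 ± 167 TPM at E13.5 and 6494 ± 123 TPM at E15.5. It was also a large part of the sums of the list given above, at 4504 ± 167 CPM at E13.5 and 7681 ± 280 CPM at E15.5. Its log2 change was 0.77 (adjusted p 0.0115), and the adjusted p was 0.0561 without E13.5 replicate 2. The homeobox gene Rhox5 was called at a level under 4 CPM, with adjusted p 0.0455, and the call was lost without any 1 of the E13.5 libraries or without E15.5 replicate 2 or 3 (adjusted p 0.0932 to 0.192).

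**Figure D3:**
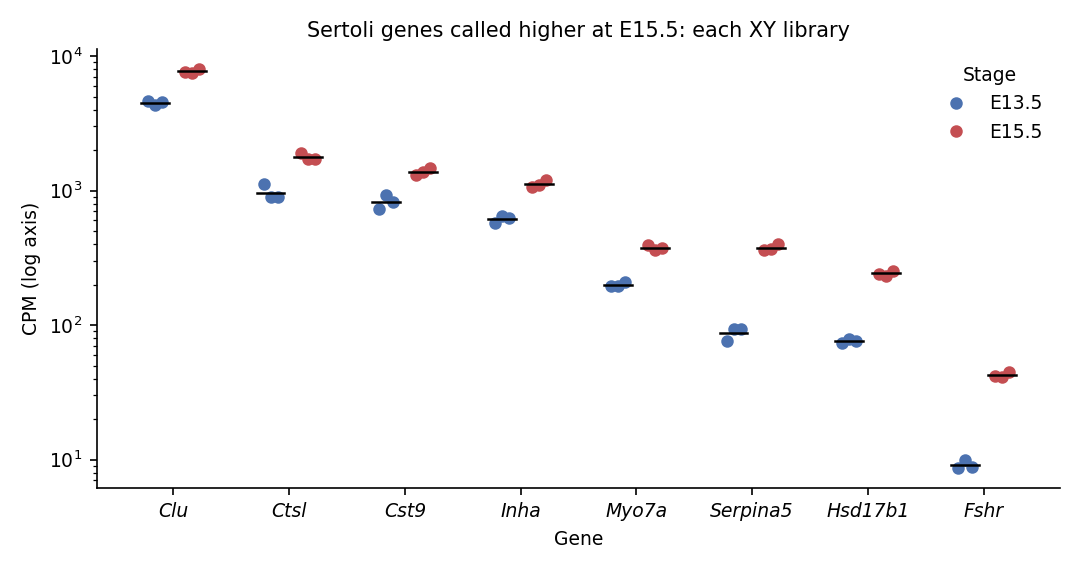
CPM (log axis) of 8 Sertoli genes called higher at E15.5, each XY library as a point, E13.5 in blue and E15.5 in red, with black lines at the means of 3 libraries. For each gene the 3 E15.5 libraries lie above the 3 E13.5 libraries, from Clu with 7428 to 7982 CPM at E15.5 down to Fshr with 41.4 to 44.7 CPM.

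The 2 genes of this list called lower were Trf, which encodes the iron carrier transferrin, and Inhbb, the beta B subunit of inhibin and activin. Trf was at 47.4, 53.3 and 53.4 CPM at E13.5 and 19.3, 21.8 and 20.3 CPM at E15.5 (log2 change -1.33, SE 0.13, adjusted p 5.35e-07), with no overlap. Inhbb was at 118, 159.6 and 169 CPM at E13.5 and 119, 107 and 95.1 CPM at E15.5, where E13.5 replicate 1 overlapped E15.5 (log2 change -0.47, SE 0.14, adjusted p 0.0181), and its adjusted p was 0.0657 without E13.5 replicate 2, 0.105 without E13.5 replicate 3 and 0.0816 without E15.5 replicate 3. Gja1, the gap junction protein connexin 43, was at 1977, 2164 and 2283 CPM at E13.5 and 2535, 2529 and 2390.0 CPM at E15.5 and was not called. Shbg, the androgen carrier, was at 99.9, 95.9 and 87.9 CPM at E13.5 and 62.3, 67 and 69.6 CPM at E15.5 with an adjusted p of 0.0501.

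Genes of Sertoli identity were called lower more often than higher. Of 20 tested, 1 was called higher and 6 lower, with a median log2 change of -0.21, and their sums were 13488, 12774 and 13914 CPM at E13.5 and 12064, 12013 and 12272 CPM at E15.5. Sox9, at 1532, 1472 and 1559 CPM at E13.5 and 1125, 1142 and 1193 CPM at E15.5, did not pass the test (log2 change -0.40, SE 0.28, adjusted p 0.36). Its stages did not overlap, as for 49.58% of all genes tested. Amh, with the values given above, had a log2 change of -0.16 (adjusted p 0.819). For Nr5a1, the orphan receptor SF1 of gonadal somatic cells, it was -0.20 (adjusted p 0.465). Gata4 and Wt1, early gonadal factors, gave -0.35 (adjusted p 0.274) and -0.19 (adjusted p 0.284), and Dmrt1 gave -0.22 (adjusted p 0.505). None of these 5 genes was called. The calls of this list depended on the setting: between 4 and 11 genes were called lower and between 0 and 5 higher.

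Among the 6 genes called lower, Fgf9, a growth factor that sustains Sox9 in the early testis, was at 21.2, 20.4 and 21 CPM at E13.5 and 6.59, 6.17 and 7.09 CPM at E15.5 (log2 change -1.66, SE 0.16, adjusted p 3.34e-07). Aard, a marker of fetal Sertoli cells, was at 182, 242 and 302 CPM at E13.5 and 85.6, 85.9 and 72.1 CPM at E15.5 (log2 change -1.57, SE 0.25, adjusted p 0.000128). Sox10, a SOX factor close to Sox9, was at 19.9, 28.3 and 33.3 CPM at E13.5 and 11.498, 9.43 and 8.92 CPM at E15.5 (log2 change -1.45, SE 0.31, adjusted p 0.00322). Cldn11, the claudin of Sertoli tight junctions, was at 193, 155 and 165 CPM at E13.5 and 79.8, 77.4 and 73.9 CPM at E15.5 (log2 change -1.15, SE 0.19, adjusted p 0.000165). Stages did not overlap for these 4 genes. Nr0b1, which encodes the receptor DAX1, fell by 0.79 on the log2 scale (adjusted p 0.000214). Dhh, the hedgehog ligand that signals to Leydig and myoid precursors, was at 1330.0, 1451 and 1449.8 CPM at E13.5 and 920.2, 939 and 968 CPM at E15.5 (log2 change -0.58, SE 0.20, adjusted p 0.0379), and its adjusted p was between 0.0768 and 0.0994 without any 1 library other than E13.5 replicate 1. The 1 gene called higher, Cst9, a cystatin, was at 729, 920.3 and 825 CPM at E13.5 and 1299, 1382 and 1465 CPM at E15.5 (log2 change 0.75, SE 0.21, adjusted p 0.0159), and its adjusted p was 0.0812 and 0.0501 without E13.5 replicates 1 and 3, and 0.0504 and 0.0637 without E15.5 replicates 2 and 3.

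Of 15 hormone receptors tested, 3 were called higher and 2 lower. Beside Fshr, those higher were Esr2 and Rora. Esr2, the estrogen receptor beta, was at 0.332, 0.159 and 0.25 CPM at E13.5 and 2.52, 2.92 and 2.59 CPM at E15.5 (log2 change 3.44, SE 0.53, adjusted p 7.33e-05). Rora, an orphan nuclear receptor, was at 14.2, 15.6 and 14.7 CPM at E13.5 and 35.1, 36.7 and 36.5 CPM at E15.5 (log2 change 1.28, SE 0.15, adjusted p 3.58e-06). Esr2 was near the floor at E13.5 and under 3 CPM at E15.5. Both thyroid hormone receptors were lower: Thra was at 146, 173 and 197 CPM at E13.5 and 124, 115 and 114 CPM at E15.5 (log2 change -0.55, SE 0.13, adjusted p 0.00402). Thrb was at 2.21, 1.75 and 1.79 CPM at E13.5 and 0.607, 0.505 and 0.253 CPM at E15.5 (log2 change -2.02, SE 0.39, adjusted p 0.000745). Thyroid hormone is known to end Sertoli cell division after birth. Of 10 genes of the stereocilia and Usher syndrome list, 1 was called higher, Myo7a, and its partners Cdh23 (147, 139 and 174 CPM at E13.5 and 149, 149 and 131 CPM at E15.5) and Espn (376, 448 and 500.4 CPM at E13.5 and 411, 378 and 392 CPM at E15.5) were not called.

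Collagens and partners known from cartilage were lower. Of 12 genes of the cartilage list tested, 7 were called lower and none higher, against 9.79% of all genes tested called lower, with a median log2 change of -1.33. Their sums were 2570.0, 1957 and 2591 CPM at E13.5 and 1009.9, 937 and 952 CPM at E15.5. Col2a1, the main fibril collagen of cartilage and a known SOX9 target, was measured at 145, 115 and 151 CPM at E13.5 and 8.37, 7.86 and 6.83 CPM at E15.5 (log2 change -4.15, SE 0.55, adjusted p 2.37e-05), a mean 17.8-fold lower at E15.5. Chains of collagen IX, which coats these fibrils, fell too. Col9a1 was at 118, 114 and 119 CPM at E13.5 and 10.1, 9.6 and 8.48 CPM at E15.5 (log2 change -3.63, SE 0.68, adjusted p 0.000691). Col9a2 was at 381, 310.3 and 415 CPM at E13.5 and 105, 97.1 and 99.7 CPM at E15.5 (log2 change -1.87, SE 0.23, adjusted p 6.27e-06). Col9a3 was at 1815, 1316 and 1807 CPM at E13.5 and 809.7, 744 and 769.8 CPM at E15.5 (log2 change -1.09, SE 0.23, adjusted p 0.00181). No E15.5 library reached an E13.5 library for any of the 4 genes.

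Per transcript length, Col9a3 remained the most abundant of the chains, at 1008 ± 184 TPM at E13.5 and 479 ± 32.3 TPM at E15.5, while Col9a1 went from 55.3 ± 1.91 to 4.39 ± 0.544 TPM and Col2a1 from 40.3 ± 5.23 to 2.28 ± 0.242 TPM. Sox5, which acts with SOX9 in cartilage, was at 42, 40.5 and 36.8 CPM at E13.5 and 9.37, 11.2 and 9.87 CPM at E15.5 (log2 change -1.97, SE 0.13, adjusted p 4.23e-09), whereas Sox6, which shares that role, was at 49.9, 47.4 and 45 CPM at E13.5 and 54.4, 53.9 and 45.4 CPM at E15.5 and was not called. Col11a2, a chain of collagen XI, was under 3 CPM and changed by -2.74 (adjusted p 0.00627), or by -3.81 without E15.5 replicate 1. Hapln1, the link protein of cartilage proteoglycan, changed by -1.57 (adjusted p 0.00981), with an adjusted p of 0.0553 without E15.5 replicate 2. Acan, the main cartilage proteoglycan, was at 5.58, 4.18 and 4.65 CPM at E13.5 and 5.64, 6.4 and 6.08 CPM at E15.5 and was not called. In XY cells the sum over this list was 384 to 487 CPM at E11.5 and 3254 to 3582 CPM at E12.5, so that it was highest at E12.5 and its range was lower at each later stage, and in XX cells it was 107 to 109.7 CPM at E13.5.

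**Figure D4:**
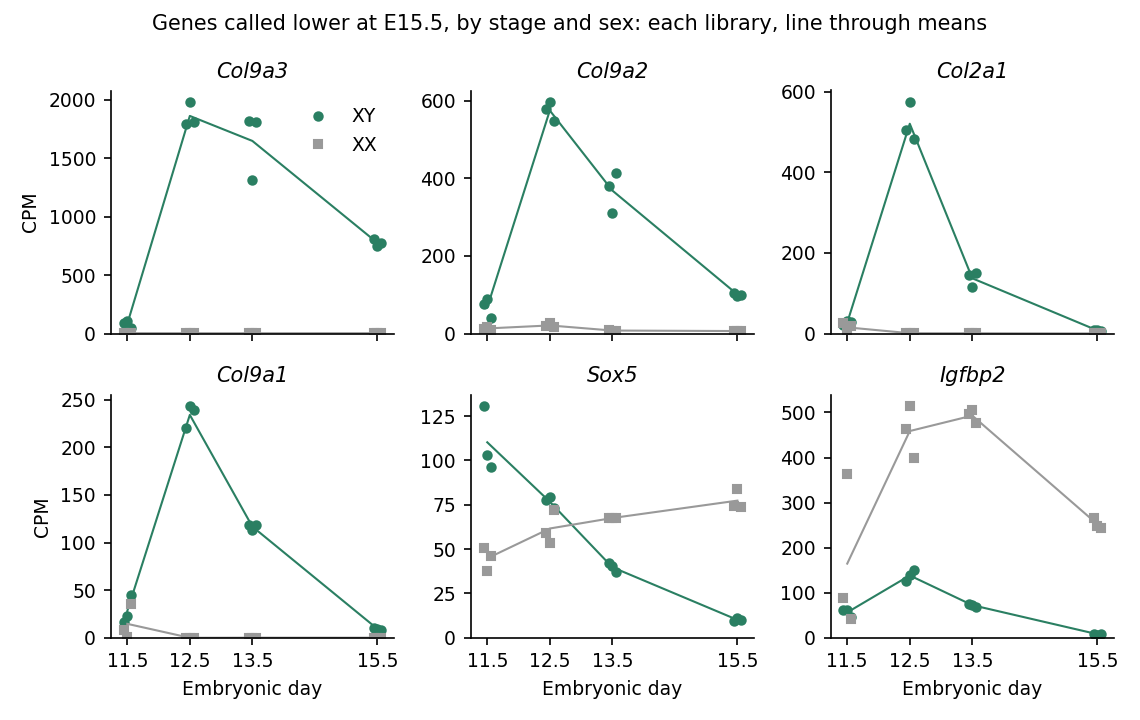
CPM of 6 genes called lower at E15.5 against embryonic day, each library as a point and lines through the means of 3 libraries, XY Sertoli cells as green circles and XX pre-granulosa cells as grey squares. Col2a1, Col9a1, Col9a2 and Col9a3 peak at E12.5 in XY cells and lie near 0 in XX cells, while Sox5 is higher in XX than in XY cells at E15.5 and Igfbp2 is higher in XX than in XY cells at each of the last 3 stages.

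Other extracellular matrix genes moved in both directions. Of 8 fibrillar and beaded collagens, 5 were called higher and none lower. Col1a1, the main collagen of connective tissue, was at 3.87, 4.26 and 5.22 CPM at E13.5 and 64.9, 83.5 and 70.2 CPM at E15.5 (log2 change 4.02, SE 0.80, adjusted p 0.00118). Col3a1, which accompanies it, was at 6.86, 8.21 and 7.9 CPM at E13.5 and 30.5, 39.7 and 39.2 CPM at E15.5 (log2 change 2.25, SE 0.38, adjusted p 0.00025). Both are also on the list of interstitial markers, of which 7 of 9 were higher, with sums of 24.3 to 27.3 CPM at E13.5 and 144 to 188 CPM at E15.5. A large part of the E15.5 sums was Col1a1, Col3a1 and Col1a2 themselves, with means of 72.9, 36.5 and 21.7 CPM. The sums are therefore not a measure separate from these collagens. Dcn, a collagen-binding proteoglycan of that list, was at 0.774, 1.16 and 1.32 CPM at E13.5 and 10.9, 12.4 and 10.8 CPM at E15.5 (log2 change 3.35, SE 0.68, adjusted p 0.00135). The part of interstitial cells in these changes was not tested.

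Basement membrane genes, which form the sheet around the cords, had 4 of 22 called higher and 4 lower. Among those lower, Lama4, the alpha 4 chain of laminin, was at 147, 135 and 139.6 CPM at E13.5 and 63.6, 69.5 and 59.3 CPM at E15.5 (log2 change -1.13, SE 0.17, adjusted p 6.33e-05). Lamc1, the common gamma 1 chain, was at 48.9, 63.6 and 76.7 CPM at E13.5 and 38.9, 39.6 and 34.4 CPM at E15.5 (log2 change -0.75, SE 0.15, adjusted p 0.00106). Col4a5, a chain of collagen IV, was at 36, 29.2 and 34.6 CPM at E13.5 and 19.2, 23.4 and 21.5 CPM at E15.5 (log2 change -0.64, SE 0.16, adjusted p 0.00609). The stages did not overlap for these 3. Col18a1, the precursor of endostatin and also lower, was at 3082, 2524 and 3478 CPM at E13.5 and 1671, 1582 and 1568 CPM at E15.5 (log2 change -0.91, SE 0.26, adjusted p 0.0152), with an adjusted p of 0.0627 without E13.5 replicate 3. For Lama2, called higher, no E13.5 library exceeded the floor, and its E15.5 level was at least 6.33-fold above it. The main collagen IV chain Col4a1, at 203, 149 and 219 CPM at E13.5 and 255, 322 and 271 CPM at E15.5, was not called (adjusted p 0.137).

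Of 26 junction genes, 2 were called higher, Ocln and Jam2, and 3 lower. The call of Jam2, a junctional adhesion molecule with a log2 change of 0.63, was lost without any 1 of the 6 libraries (adjusted p 0.0718 to 0.089). Cdh2, the N-cadherin that joins Sertoli and germ cells, was at 119.9, 116 and 129 CPM at E13.5 and 79, 71.8 and 72.6 CPM at E15.5 (log2 change -0.71, SE 0.13, adjusted p 0.000537). The others called lower were Cldn11, given above, and Cgn, the junction plaque protein cingulin (-0.48, adjusted p 0.0178), a call that was lost without E13.5 replicate 2 or 3 or E15.5 replicate 1 (adjusted p of 0.0503 or more). Nectin2, which encodes an adhesion protein of the same contacts, had a log2 change of 0.091 and was not called.

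In the signalling lists, calls went both ways. For the anti-Müllerian hormone, inhibin and transforming growth factor beta list, 5 of 23 genes were higher and 5 lower, and the lower count was 2 or 3 without any 1 library other than E13.5 replicate 1. Fstl3, which binds and blocks activin, was at 3.1, 4.42 and 3.61 CPM at E13.5 and 13.3, 12.7 and 15.7 CPM at E15.5 (log2 change 1.90, SE 0.17, adjusted p 1.08e-07). Tgfb2, a ligand, was at 2.21, 2.59 and 2.39 CPM at E13.5 and 7.9, 8.7 and 7.4 CPM at E15.5 (log2 change 1.73, SE 0.36, adjusted p 0.0015). Among transducers, Smad2 was at 69.2, 75.7 and 74 CPM at E13.5 and 99.1, 98.3 and 94 CPM at E15.5 (log2 change 0.41, SE 0.07, adjusted p 0.000212), and the inhibitory Smad7 rose by 0.55 (adjusted p 0.00435). The co-receptor gene Tgfbr3, at 5.64, 4.06 and 5.04 CPM at E13.5 and 1.91, 2.86 and 2.4 CPM at E15.5, was lower (log2 change -1.04, SE 0.19, adjusted p 0.000399). The stages did not overlap for these genes. Amhr2, the receptor of anti-Müllerian hormone, was at 700.5, 727 and 724 CPM at E13.5 and 486, 498 and 536 CPM at E15.5 (log2 change -0.50, SE 0.15, adjusted p 0.0198), with adjusted p of 0.0643 and 0.0554 without E15.5 replicates 1 and 2.

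Of 14 hedgehog genes, 2 were called higher and 3 lower. The 2 higher were Gli1 and Gli2, factors that act in the cells that receive the signal. Both were under 2 CPM, their log2 changes were 3.09 and 1.88, and that of Gli1 was 4.74 without E13.5 replicate 1 and 2.46 without E13.5 replicate 2. Beside Dhh, the co-receptor genes Boc and Cdon fell by 0.89 and 0.58 (adjusted p 0.0111 and 0.00591). Without E15.5 replicate 1 or 3, the adjusted p of Boc was 0.0638 or 0.0524. Ptch1, the receptor and a target of the pathway, was at 85.9, 80.4 and 84.4 CPM at E13.5 and 77.1, 79.7 and 76.6 CPM at E15.5 and was not called. These counts rested on single libraries: no gene was called higher without E13.5 replicate 2 and 1 without E13.5 replicate 3 or E15.5 replicate 2, and 1 was called lower without E15.5 replicate 1 or 3. Of 15 fibroblast growth factor genes, none was higher and 2 were lower, Fgf9 and the receptor Fgfr1. Fgfr1 fell by 1.03 (adjusted p 0.0375), and its call was lost without any 1 library other than E13.5 replicate 1 (adjusted p 0.0606 to 0.162).

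For the WNT list, 4 of 17 were called higher and 3 lower. Tcf7, a transcription factor of the pathway, was at 18.7, 21.8 and 20.5 CPM at E13.5 and 41.4, 41.7 and 39.2 CPM at E15.5 (log2 change 1.001, SE 0.13, adjusted p 1.68e-05). Wnt5a, a ligand, was at 5.97, 4.74 and 5.07 CPM at E13.5 and 11.6, 18.7 and 15.1 CPM at E15.5 (log2 change 1.53, SE 0.24, adjusted p 8.13e-05). Among those lower, Lgr4, a receptor of R-spondins, was at 62.4, 74.6 and 70.8 CPM at E13.5 and 37.5, 43.3 and 40.4 CPM at E15.5 (log2 change -0.78, SE 0.18, adjusted p 0.00366). Wif1, a secreted inhibitor, was at 14.7, 13.9 and 14.4 CPM at E13.5 and 6.73, 6.12 and 7.85 CPM at E15.5 (log2 change -1.06, SE 0.29, adjusted p 0.0128), with an adjusted p of 0.0582 without E15.5 replicate 2, where 1 gene of the list was called lower. Wnt6, the most abundant ligand by counts, at 1258, 1262 and 1362 CPM at E13.5 and 1026, 988 and 1102 CPM at E15.5, was not called.

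Of 15 Notch genes, 1 was called higher and 2 lower. Hes1, a repressor induced by Notch, was at 26.2, 34.6 and 38.4 CPM at E13.5 and 18.4, 15.7 and 15.1 CPM at E15.5 (log2 change -1.01, SE 0.25, adjusted p 0.00523). Hey1, a related one, fell by 0.48 (adjusted p 0.00898). Lfng, which modifies the receptor, was at 26.4, 21.3 and 23 CPM at E13.5 and 42, 39.7 and 38.9 CPM at E15.5 (log2 change 0.77, SE 0.17, adjusted p 0.00225). In the retinoid list, 2 of 15 were higher. Stra6, a retinol transporter among them, was at 24.3, 20.00 and 20.2 CPM at E13.5 and 55, 57.5 and 55.7 CPM at E15.5 (log2 change 1.38, SE 0.34, adjusted p 0.0052). Cyp26b1, the enzyme that clears retinoic acid from the fetal testis and keeps germ cells out of meiosis, was at 174, 139.6 and 177 CPM at E13.5 and 102, 94.5 and 99 CPM at E15.5. It was not called (log2 change -0.73, SE 0.31, adjusted p 0.0987), and its stages did not overlap, as for 49.58% of all genes tested.

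Among 14 secreted niche factors, 3 were called higher and 4 lower. Kitl, the ligand of the germ cell receptor KIT, fell, at 512, 511 and 508 CPM at E13.5 and 326, 317 and 273 CPM at E15.5 (log2 change -0.74, SE 0.11, adjusted p 5.23e-05). Nrtn, a relative of GDNF, was also lower, at 9.84, 19.2 and 21.2 CPM at E13.5 and 3.99, 3.2 and 1.65 CPM at E15.5 (log2 change -2.48, SE 0.39, adjusted p 0.000113), with E13.5 replicate 1 lowest of its stage and a log2 change of -2.77 without it. The stages did not overlap for either. Pdgfa, a PDGF ligand gene, rose from 98.5, 106 and 97.2 CPM at E13.5 to 154, 169 and 175 CPM at E15.5 (log2 change 0.72, SE 0.14, adjusted p 0.000618). Pdgfb, its relative, rose by 1.70 (adjusted p 0.000857) from a low level. Gdnf itself, a factor for spermatogonia, was at 37.1, 27.3 and 31.3 CPM at E13.5 and 42.1, 39.9 and 37.8 CPM at E15.5 and was not called. Cxcl12, a chemokine that guides germ cells, rose by 2.41 (adjusted p 0.0112, or 0.0561 without E13.5 replicate 2); stromal cells also express it, and the interstitial marker sums moved with it, whose part was not tested. The lower count was 2 without E13.5 replicate 2 or 3 or E15.5 replicate 1.

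Of 21 glycolysis and lactate genes, none was higher and 3 (14.3%) were lower, with a median log2 change of -0.12. Ldhb, a lactate dehydrogenase subunit, was at 2612, 3137 and 2850.2 CPM at E13.5 and 1380.3, 1415 and 1566 CPM at E15.5 (log2 change -0.98, SE 0.15, adjusted p 6.21e-05). Aldoa, an aldolase, fell by 0.36 (adjusted p 0.0149). Pkm, the pyruvate kinase, fell by 0.27 (adjusted p 0.0402), and was not called without E13.5 replicate 2 or 3 or E15.5 replicate 1 or 2 (adjusted p 0.0756 to 0.118). Ldha, the other main subunit, was at 368, 334 and 327 CPM at E13.5 and 345, 336 and 360.2 CPM at E15.5 and was not called. Of 25 cholesterol genes, 4 (16%) were higher and 3 (12%) lower, and 1 or 2 were called higher when any 1 library was left out. Abca1, a cholesterol exporter, was among the lower genes, at 81.2, 81.5 and 86.8 CPM at E13.5 and 32.8, 30.9 and 26.9 CPM at E15.5 (log2 change -1.46, SE 0.14, adjusted p 2.05e-07). Sc5d, an enzyme of the last steps of synthesis, rose by 0.57 (adjusted p 0.000402).

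Sertoli cells clear dying germ cells, and of 13 genes of this task 2 were higher and 5 lower. Among those lower, Mertk, a receptor for such cells, was at 27.1, 21.4 and 22.4 CPM at E13.5 and 13.4, 13.7 and 11.6 CPM at E15.5 (log2 change -0.87, SE 0.13, adjusted p 4.71e-05). Mfge8, which encodes a bridging protein, was at 545, 537 and 534 CPM at E13.5 and 304, 309.6 and 332 CPM at E15.5 (log2 change -0.77, SE 0.14, adjusted p 0.000481). Elmo1, which links the receptors to RAC1, fell by 0.88 (adjusted p 0.00366). Axl, a receptor related to Mertk, had a log2 change of 0.14 and was not called. The higher count was 1 without any 1 library, since that of Scarb1, a scavenger receptor, was then lost (adjusted p 0.0733 to 0.111). Of 15 glutathione and antioxidant genes, Gsta3 rose by 0.88 (adjusted p 0.00502). Gstm7 fell from 949, 948 and 902 CPM at E13.5 to 381, 374 and 417 CPM at E15.5 (log2 change -1.26, SE 0.15, adjusted p 4.21e-06). Genes of these transferase families are similar in sequence, and how shared reads were divided is not given in the sources used here.

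Imprinted genes were called lower more often than higher. Of 18 tested, 9 were called lower and 2 higher, with a median log2 change of -0.61, and the sums were 1554, 1622 and 1682 CPM at E13.5 and 957, 980.3 and 947 CPM at E15.5. Many imprinted genes are known for high expression in fetal tissue that wanes with growth. Dlk1, a transmembrane relative of Notch ligands, was at 67.3, 59.97 and 64.2 CPM at E13.5 and 13.54, 16.4 and 17 CPM at E15.5 (log2 change -2.03, SE 0.18, adjusted p 1.03e-07). Meg3, the noncoding RNA of the same domain, was at 118, 82.9 and 85.9 CPM at E13.5 and 28.4, 29.1 and 29.4 CPM at E15.5 (log2 change -1.72, SE 0.32, adjusted p 0.000609). Grb10, a growth-restricting adaptor, was at 429, 504 and 503 CPM at E13.5 and 216, 226 and 207 CPM at E15.5 (log2 change -1.14, SE 0.25, adjusted p 0.00243). The transporter gene Slc38a4 was at 32, 29.96 and 32.2 CPM at E13.5 and 8.94, 10.6 and 10 CPM at E15.5 (log2 change -1.68, SE 0.15, adjusted p 1.03e-07). Peg3, Mest and Peg10 fell by 1.03, 0.88 and 1.09 (adjusted p 0.000977, 0.000146 and 0.00064). Cdkn1c, given above, is the only one of these that is also on the cyclin and inhibitor list.

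Nnat, a small membrane protein gene, went the other way, from 44.8, 37.4 and 42.7 CPM at E13.5 to 98.1, 94.5 and 101 CPM at E15.5 (log2 change 1.23, SE 0.17, adjusted p 1.74e-05). Sgce, the other gene called higher, rose by 0.49 (adjusted p 0.0202), a call that was lost without any 1 library other than E15.5 replicate 3 (adjusted p 0.0619 to 0.0812). H19, the imprinted noncoding RNA beside Igf2, was at 5.58, 6.38 and 7.93 CPM at E13.5 and 7.81, 8.25 and 7.09 CPM at E15.5 and was not called.

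Of 13 genes of DNA methylation and chromatin, 5 were higher and 1 lower, and 3 were called higher when any 1 library was left out. Uhrf1, which brings the maintenance methyltransferase to replicated DNA, was at 93.6, 77.9 and 70.3 CPM at E13.5 and 186, 170.5 and 177 CPM at E15.5 (log2 change 1.14, SE 0.14, adjusted p 4.96e-06). That methyltransferase, Dnmt1, was at 164, 136 and 138 CPM at E13.5 and 248, 233 and 245 CPM at E15.5 (log2 change 0.73, SE 0.15, adjusted p 0.00145). The gene called lower was Dnmt3b, a de novo methyltransferase, at 38.4, 34.4 and 34 CPM at E13.5 and 23, 24.4 and 21.6 CPM at E15.5 (log2 change -0.63, SE 0.14, adjusted p 0.00215). Dnmt3a, its relative, was at 195, 205 and 202 CPM at E13.5 and 185, 181 and 193 CPM at E15.5 and was not called. Dnmt3l, a cofactor of male germ cells, had at most 1 count in any E13.5 library and was at least 8.86-fold above the floor at E15.5, at 0.955, 2.19 and 1.27 CPM; 10 of 11 germ cell markers were also higher, with sums of 38.4 to 43.9 CPM at E13.5 and 93.2 to 145 CPM at E15.5, and their part was not tested.

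Immediate-early and heat shock genes, which respond within minutes to stimuli and to handling of cells, were higher for 7 of 18 and lower for none, with a median log2 change of 0.76. The sums were 6521, 5254 and 5857 CPM at E13.5 and 11288, 12081 and 12114 CPM at E15.5. Atf3, a stress-induced factor, was at 30.4, 13.6 and 15 CPM at E13.5 and 214, 227 and 218 CPM at E15.5 (log2 change 3.49, SE 0.88, adjusted p 0.00755). Fosb, a FOS family member, was at 75.6, 35.8 and 48.2 CPM at E13.5 and 268, 365 and 292 CPM at E15.5 (log2 change 2.54, SE 0.58, adjusted p 0.00362). Jun, their partner, was at 1201, 1125 and 1222 CPM at E13.5 and 3058, 3158 and 3197 CPM at E15.5 (log2 change 1.41, SE 0.37, adjusted p 0.00892). Hspa1a, the inducible HSP70, was at 137, 129 and 136 CPM at E13.5 and 869.7, 874 and 903 CPM at E15.5 (log2 change 2.72, SE 0.51, adjusted p 0.000656). The E15.5 libraries were above the E13.5 libraries for all 4. Hspa1b, a near-identical copy of Hspa1a, rose by 1.96 (adjusted p 0.0102), and how reads were divided between the copies is not given in the sources used here.

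Fos, at 1144, 630.2 and 730.2 CPM at E13.5 and 2066, 2209 and 2128 CPM at E15.5 (log2 change 1.35, SE 0.46, adjusted p 0.0434), was not called without any 1 library other than E13.5 replicate 1 (adjusted p 0.0819 to 0.171), and Dusp1, a phosphatase that limits the same signals, was called at an adjusted p of 0.0463, and not without any 1 library (0.0697 to 0.162). Egr1 and Btg2, genes of the same kind, had log2 changes of 0.87 and 0.18 and were not called. The part of cell handling in these values was not tested. Interferon-response genes had 3 of 17 higher and 1 lower. Bst2, an antiviral membrane protein gene, was the lower one, at 87.6, 76.6 and 81.3 CPM at E13.5 and 37.2, 33.8 and 33.8 CPM at E15.5 (log2 change -1.23, SE 0.19, adjusted p 9.16e-05).

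Further genes were chosen by the size of the change, among called genes whose stages did not overlap and whose higher stage averaged at least 10 CPM. Among those higher, Ccl17, a chemokine gene, was at 8.35, 9.76 and 8.47 CPM at E13.5 and 76.4, 80.2 and 83.5 CPM at E15.5 (log2 change 3.17, SE 0.23, adjusted p 8.13e-09). Mlf1, a myeloid leukemia factor, was at 7.08, 5.74 and 5.5 CPM at E13.5 and 48.6, 50.1 and 55.8 CPM at E15.5 (log2 change 3.08, SE 0.42, adjusted p 2.21e-05). Each of their E15.5 libraries was above every E13.5 library. Dppa4, a gene of early germ cells and pluripotent cells, was at 0.498, 0.438 and 0.214 CPM at E13.5 and 9.33, 16.9 and 12.4 CPM at E15.5 (log2 change 5.08, SE 0.66, adjusted p 1.06e-05). Dppa3, a gene of the same cells, was at 1.22, 3.23 and 1.39 CPM at E13.5 and 10.5, 20.3 and 16.7 CPM at E15.5 (log2 change 3.01, SE 0.56, adjusted p 0.000504). Stk31, a kinase gene of the germ line, was at 0.94, 1.28 and 1 CPM at E13.5 and 11.1, 16.9 and 11.3 CPM at E15.5 (log2 change 3.60, SE 0.42, adjusted p 3.45e-06). Dppa4 and Dppa3 are themselves on the germ cell marker list and so part of the sums given above, while Stk31 is not. E15.5 replicate 2 was highest for each of these 3 genes and in that sum. The part of germ cells in these changes was not tested.

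The globin genes Hbb-b1, Hba-a2, Hbb-bt and Hba-a1 were also selected, as were Atf3, Col1a1 and Dcn, given above. Hbb-b1, an adult beta globin, was at 3.26, 5.5 and 4 CPM at E13.5 and 51.2, 55.7 and 78.5 CPM at E15.5 (log2 change 3.85, SE 0.56, adjusted p 5.23e-05). Hba-a2, an alpha globin with a near-identical copy in Hba-a1, was at 5.47, 10.4 and 6.22 CPM at E13.5 and 67.2, 87.5 and 116 CPM at E15.5 (log2 change 3.60, SE 0.52, adjusted p 5.82e-05). Hbb-bt changed by 3.38, or by 4.51 without E13.5 replicate 2. Hba-a1, Hba-a2 and Hbb-bt are themselves on the erythroid list and so part of its sums, while Hbb-b1 is not. The part of red cells in these changes was not tested. Alas2, the heme synthesis gene of red cells, was at 31.2, 29.8 and 28.6 CPM at E13.5 and 37.4, 33.9 and 35.7 CPM at E15.5 and was not called. In XX cells Alas2 was at 1.36 ± 0.13 CPM at E13.5 and 1.92 ± 0.536 CPM at E15.5. Hba-a2 was there at 300 ± 26.2 and 140 ± 22.4 CPM. The XX means of the other globins named here were higher at E15.5 than at E13.5. Hbb-b1 went from 27.2 to 103 CPM, Hbb-bt from 10.6 to 16.9 CPM and Hba-a1 from 186 to 198 CPM. Among these globins, only Hbb-b1 was called in the XX step (adjusted p 0.00733). Rpl10-ps1, which is named as a pseudogene, had no count at E13.5 and 6.99, 22 and 28.7 CPM at E15.5, at least 116-fold above the floor, and reads of its parent gene could be placed there.

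Among those lower, Igfbp2, a binding protein of insulin-like growth factors, was at 75.8, 73.6 and 68.2 CPM at E13.5 and 8.42, 7.3 and 8.48 CPM at E15.5 (log2 change -3.17, SE 0.48, adjusted p 9e-05). Nell1, a secreted factor of bone formation, was at 47.3, 48.2 and 48.7 CPM at E13.5 and 4.9, 4.6 and 6.9 CPM at E15.5 (log2 change -3.14, SE 0.33, adjusted p 1.41e-06). Tgfbi, a matrix protein induced by transforming growth factor beta, was at 199, 173 and 184 CPM at E13.5 and 28.9, 27.5 and 27.4 CPM at E15.5 (log2 change -2.73, SE 0.22, adjusted p 5.68e-08). Sparcl1, a relative of the matrix protein SPARC, was at 24.2, 25.4 and 24.5 CPM at E13.5 and 3.9, 3.82 and 3.35 CPM at E15.5 (log2 change -2.73, SE 0.14, adjusted p 5.17e-11). The spread within each stage was small against these changes. Prss12, a serine protease gene, was at 24.5, 25.7 and 24.7 CPM at E13.5 and 2.99, 2.86 and 3.04 CPM at E15.5 (log2 change -3.07, SE 0.47, adjusted p 8.13e-05). Kcnk2, a potassium channel gene, fell by 3.08 (adjusted p 4.94e-08), Sybu, a syntaxin-binding protein gene, by 2.90 (adjusted p 5.17e-11) and Ibsp, a bone sialoprotein gene, by 2.66 (adjusted p 1.16e-05). Col2a1, Col9a1 and Cdkn1c, given above, were selected by the same rule.

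The step from E13.5 to E15.5 was then tested against the same step in XX pre-granulosa cells, as the difference of the 2 log2 changes. Of 16190 genes, 4184 (25.84%) were called, 2179 (13.46%) with the XY change above the XX change and 2005 (12.38%) below it. In the XX step itself, 2074 genes (12.81%) were called higher at E15.5 and 2070 (12.79%) lower, and the counts of list genes called in that step are to be read against these shares. The 2 steps share no library. One XX library at E13.5, replicate 1, has E13.5 in its title and E12.5 in its stage field; it was kept at E13.5, and 3457 genes were called without it.

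Cell-division genes differed between the sexes in this step. Of the 20 mitosis genes, 16 had the XY change above the XX change and none below, and no gene of the list was called in the XX step in either direction. Mitosis sums were 523 to 650.4 CPM in XX cells at E13.5 and 510.2 to 597 CPM at E15.5. Of the 20 replication genes, 18 were above, and 14 were called lower in the XX step. Mcm7 gave 151 ± 6.49 CPM at E13.5 and 71.3 ± 3.87 CPM at E15.5 in XX cells, a change of -1.08, so that the difference was 1.74 (SE 0.10, adjusted p 9.07e-10). Mcm2 gave 195 ± 17.1 and 71.2 ± 14.4 CPM in XX cells and a difference of 2.40 (SE 0.16, adjusted p 4.25e-09). Chaf1b, a subunit of the chromatin assembly factor at replication forks, was at 54, 49.8 and 49.4 CPM at E13.5 and 104, 102 and 109 CPM at E15.5 in XY cells, and at 50.9 ± 3.62 and 25.6 ± 1.35 CPM in XX cells, with a difference of 2.03 (SE 0.13, adjusted p 1.9e-09).

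Cdkn1c moved in opposite directions: in XX cells it was at 495 ± 99 CPM at E13.5 and 2166 ± 337 CPM at E15.5, an XX change of 2.13 (adjusted p 0.00841) and a difference of -4.96 (adjusted p 0.000216). Ccnd2 changed by 0.35 in XX cells (difference 1.33, adjusted p 8.24e-07), and Ccnd1 by -0.83 (difference -1.06, adjusted p 0.0015).

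**Figure D5:**
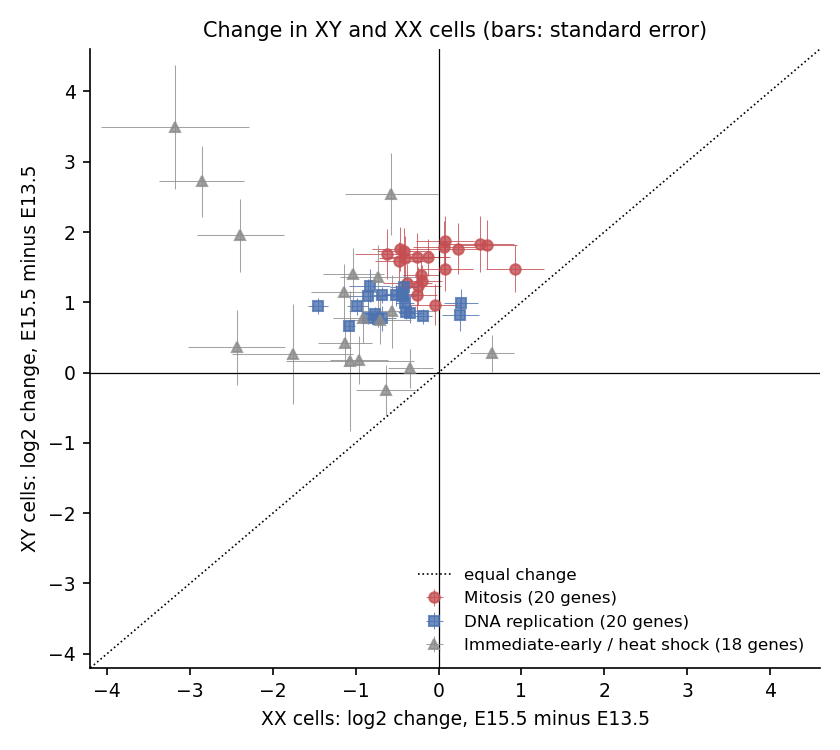
Log2 change from E13.5 to E15.5 in XY Sertoli cells (vertical) against that in XX pre-granulosa cells (horizontal) for 20 mitosis genes, 20 DNA replication genes and 18 immediate-early and heat shock genes, with standard errors as bars and a dotted line of equal change. All mitosis and replication genes lie above 0 in XY cells and above the dotted line, and the replication genes lie mostly left of 0.

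Immediate-early genes differed in the same sense, with 11 of 18 above and none below, and 8 called lower in the XX step. Their sums in XX cells were 11683 to 14307 CPM at E13.5 and 6395 to 7345 CPM at E15.5, the reverse order of XY cells. Atf3 was at 106 ± 34.9 and 11.6 ± 3.1 CPM in XX cells (difference 6.67, adjusted p 0.000757), and Hspa1a differed by 5.58 (adjusted p 2.06e-05).

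Of the maturation list, 5 genes had the XY change above the XX change and 4 below. Myo7a was at 19.1 ± 2.03 and 8.55 ± 0.424 CPM in XX cells, so its difference was 2.06 (SE 0.14, adjusted p 4.25e-09), and Inha changed by -0.018 in XX cells (difference 0.88, adjusted p 0.000127). For Fshr, almost without counts in XX cells, the difference was not called (adjusted p 0.163). Clu also rose in XX cells, by 1.32 (adjusted p 0.000156), and its difference of -0.55 was not called (adjusted p 0.183). Of the cartilage list, 4 genes were below and none above, Col9a2, Col9a3, Hapln1 and Sox5, with Sox5 at 67.5 ± 0.22 and 77.4 ± 5.79 CPM in XX cells (difference -2.17, adjusted p 6.68e-08). Col2a1 and Col9a1, under 1 CPM in XX cells, had no called difference (adjusted p 0.46 and 0.557).

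Signalling genes differed singly. Kitl was at 903 ± 36 and 1082 ± 17.2 CPM in XX cells, where it was above the XY level at both stages (difference of changes -0.99964, adjusted p 9.41e-05). Wnt5a, Lfng and Stra6, higher in the XY step, changed by -1.22, -1.72 and -1.35 in XX cells, with differences of 2.74, 2.49 and 2.74 (adjusted p 6.09e-06, 1.99e-05 and 0.000434). Hes1 changed by 0.80 in XX cells, a difference of -1.81 (adjusted p 0.000631). Among imprinted genes, Grb10, Peg3 and Mest changed by -1.27, -0.95 and -0.83 in XX cells and their differences, 0.12, -0.079 and -0.05, were not called, while Dlk1 differed by -1.62 (adjusted p 6.46e-05) and Nnat by 2.10 (adjusted p 2.29e-06). Interferon-response genes showed 14 of 17 called higher in the XX step, with 5 differences called, all with the XY change below.

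Other genes with the smallest p in this comparison were Rps18-ps6 above, and M1ap, Serpini1, Sybu and Paqr8 below. M1ap, a meiosis gene, was at 14.5, 14.7 and 14.1 CPM at E13.5 and 3.6, 4.94 and 5.57 CPM at E15.5 in XY cells and at 2.8 ± 0.696 and 59.9 ± 10.7 CPM in XX cells (difference -6.03, adjusted p 1.64e-10). Germ cell marker sums in XX cells were 21.3 to 38.7 CPM at E13.5 and 53.3 to 76.8 CPM at E15.5. Of 11 germ cell markers, 3 were called higher and 2 lower in the XX step. The part of germ cells in the M1ap change was not tested. Paqr8, a membrane progestin receptor gene, was at 61.1, 57.3 and 60.4 CPM at E13.5 and 19.5, 20.8 and 19.6 CPM at E15.5 in XY cells and at 10.4 ± 0.926 and 22.5 ± 4.44 CPM in XX cells (difference -2.68, adjusted p 1.84e-08). Serpini1, which encodes neuroserpin, was at 31.1, 33.6 and 31.9 CPM at E13.5 and 6.38, 5.84 and 6.14 CPM at E15.5, and in XX cells at 78.1 ± 5.74 and 91.9 ± 5.5 CPM (difference -2.63, adjusted p 1.9e-09). Rps18-ps6, named as a pseudogene, was at 76.5, 66.1 and 63.9 CPM at E13.5 and 63.3, 66.5 and 71.8 CPM at E15.5 in XY cells without a call, with a difference of 8.76; in XX cells it was at 143 ± 1.44 and 0.434 ± 0.752 CPM.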

How the data were processed

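Polyadenylated RNA of about 40000 sorted cells per library was amplified and sequenced, per the labels' protocols. The authors deposited expected counts and TPM (abundance scaled by transcript length and library total) per gene in 1 table each for the same 24 libraries, with build mm10 named in the submitters' processing notes. Aligner, counting tool, gene annotation and strand are not given in the sources used here, so reads of overlapping or near-identical genes could have been divided in any way. Of the count values 17.5% were not whole and were rounded.

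The rounded counts were fitted with edgeR 4.0.16 in R 4.3.3 (filterByExpr, TMM scaling, robust quasi-likelihood) over all 8 groups of 3 libraries. This left 16 residual degrees of freedom, and the common coefficient of variation was 17.4%. Of 32040 genes 16190 were tested, and p-values were adjusted by Benjamini-Hochberg over these. CPM use TMM-scaled library sizes, and the floor is 3 counts per library. Contrasts were XY E15.5 minus E13.5, and that step minus the XX step. On simulated counts for the first contrast, 41 of 50 and 42 of 50 genes at log2 changes of 1 up and down were recovered, and 48 and 49 of 50 at log2 changes of 2. The altered genes were drawn above a minimum mean level, and the simulated spread was the one estimated from these data. Recovery of genes at low levels was therefore not covered. Replicate numbers were not paired across stages: correlations of same-numbered deviations were -0.078, -0.022 and -0.073.

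The comparison and the gene lists were chosen with earlier results of these data known. Beside list genes, the 12 genes per direction with the largest change (at least 10 CPM in the higher stage, no overlap) and the 5 per direction with the smallest p in the sex comparison (at least 10 CPM in 1 of 4 groups) were named, with pseudogenes in addition. Some genes that these rules selected or that the lists hold are not reported here by name. Alternatives were DESeq2 size factors, DESeq2 1.42.0, limma 3.58.1 on log2(TPM + 1) or log2(TPM + 0.1), other filters, fewer libraries, the replicate block, a log2 change of at least 1, and leaving out each library.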

Additional observations from a re-analysis of the deposited data

Results flagged for a closer look

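Named genes whose step from E13.5 to E15.5 differed between XY and XX cells are given here as the XY log2 change minus the XX log2 change. Each difference was called by edgeR's quasi-likelihood test of the difference itself (adjusted p under 0.05), and sex, mouse line and fluorophore change together in it.

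Genes with the smallest p were Mcm7 (1.74), Chaf1b (2.03), Myo7a (2.06), Mcm2 (2.40) and the pseudogene Rps18-ps6 (8.76) on the XY side. On the XX side they were M1ap (-6.03), Serpini1 (-2.63), Sybu (-2.72) and Paqr8 (-2.68).

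The remaining genes were called in both steps with opposite signs. Of those that rose in XY and fell in XX cells, replication and chromatin genes were Mcm6 (1.63), Pcna (1.39), Ccne1 (1.45), Uhrf1 (2.46) and Dnmt1 (1.64). Stress-response genes were Atf3 (6.67), Hspa1a (5.58), its near-identical copy Hspa1b (4.35), Jun (2.44), Dusp1 (2.29), Cdkn1a (1.82) and Csrnp1 (4.05), a nuclear protein gene induced by AXIN1. Signalling and retinoid genes were Fstl3 (2.37), Wnt5a (2.74), Lfng (2.49), Stra6 (2.74) and Gli2 (3.57). Further genes of this kind were Rhox5 (2.01), Scarb1 (1.55), Nnat (2.10), the protease gene Adamts1 (4.30), the ion channel gene Asic4 (3.35) and Lhx9 (1.44), a factor of the early gonad that is also on the pre-granulosa marker list. Dppa3 (5.20) and Cyp11a1 (7.19) are markers of germ cells and Leydig cells, whose sums are given above.

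Genes that fell in XY and rose in XX cells were Cdkn1c (-4.96), Nrtn (-3.60), Aard (-3.33), Hes1 (-1.81), Gstm7 (-1.88), Thra (-1.51), Col4a5 (-1.18), Megf6 (-2.88) and Tspan32 (-3.08). Cdkn1c had the largest of these differences, from a mean of 95.2 ± 53.7 to 13.4 ± 3.41 CPM (± SD, n = 3) in XY cells and from 495 ± 99 to 2166 ± 337 CPM in XX cells.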

How the results depend on the processing

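Between E13.5 and E15.5, 3448 genes were called in XY cells, and the count lay between 2827 and 4688 under the other scalings, tests, filters and the fit to the 12 XY libraries. It was 6111 (3177 higher, 2934 lower) when only the 6 compared libraries were fitted, and 1396 (859 higher, 537 lower) with a log2 change of at least 1 in addition. For the XY step minus the XX step, 4184 genes became 6318 and 2095 under these settings. Leaving out each library in turn gave 2458 to 2894 calls, 1266 to 1443 higher and 1124 to 1520 lower, and 3361 to 4055 for the sex comparison. Calls were higher at E15.5 in 54.0% of cases, in 61.5% with a log2 change of at least 1, and in 47.5% without E13.5 replicate 1.

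Same-numbered libraries did not deviate together. With the replicate block, 3401 genes were called (1839 higher, 1562 lower), and 4104 in the sex comparison. Of the genes described, 2 lost their call under this block, Fos (adjusted p 0.0627) and Dusp1 (0.0645). Of 210 genes followed through all settings, 177 were called, 105 of these kept their call in every setting, and 139 in every setting other than the added log2 change of at least 1.

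Signs turned for 4 genes. Ptch1 was at 0.17 by limma on log2(TPM + 1), with or without a filter, and at 0.17 on log2(TPM + 0.1), against -0.10. Without 1 library each, log2 changes ranged from -0.051 to 0.24 for Cdkn1b, from -0.031 to 0.045 for Ldha and from -0.11 to 0.021 for Rps18-ps6. None of these genes was called, and the cause was not tested. Values near the floor limit what depth can show: a count of 3 is worth 0.107 to 0.19 CPM here.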

Other observations

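Genes on none of the lists were looked through for the largest changes at appreciable levels, a choice made after the values were seen: called, without overlap, and at least 30 CPM in the higher stage, which 1640 genes met. Genes among the 12 largest in each direction are described.

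Among those higher at E15.5, Adcyap1r1, the receptor of the neuropeptide PACAP, was at 28.8, 27.7 and 32.6 CPM at E13.5 and 149, 144 and 150.4 CPM at E15.5 (log2 change 2.31, SE 0.21, adjusted p 1.8e-07). Mdga1, a membrane-anchored adhesion protein gene, was at 5.53, 6.38 and 6.25 CPM at E13.5 and 32.2, 30.8 and 31.8 CPM at E15.5 (log2 change 2.38, SE 0.30, adjusted p 8.5e-06). Cst12, a further cystatin beside Cst9, was at 14.5, 16.8 and 16.3 CPM at E13.5 and 67.6, 64.2 and 67 CPM at E15.5 (log2 change 2.06, SE 0.38, adjusted p 0.000506). Asic4, an acid-sensing channel gene, rose by 2.25 (adjusted p 1.9e-05) and Foxs1, a forkhead factor gene, by 2.17 (adjusted p 0.000464). Pimreg, Iqgap3, Troap and Sgo2a, genes known from dividing cells, rose by 2.26, 2.24, 2.09 and 2.05 (adjusted p 5.03e-06, 0.00104, 0.000504 and 0.00129). Nfkbiz and Csrnp1, both inducible nuclear protein genes, rose by 2.07 and 2.07 (adjusted p 0.00412 and 0.00147), and Adamts1, a matrix protease gene, by 2.18 (adjusted p 2.19e-05).

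Among those lower, Gjb2, the gap junction protein connexin 26, was at 213, 207 and 218 CPM at E13.5 and 48.1, 49.1 and 44.9 CPM at E15.5 (log2 change -2.17, SE 0.24, adjusted p 1.74e-06). Hmga2, a chromatin protein known from fetal and growing cells, was at 119, 127 and 159.5 CPM at E13.5 and 29.4, 33.2 and 28.5 CPM at E15.5 (log2 change -2.15, SE 0.25, adjusted p 4.02e-06). Libraries of a stage lay close together for Gjb2, while those of Hmga2 at E13.5 were spread more widely. Gpx3, a secreted glutathione peroxidase gene, fell by 2.15 (adjusted p 0.000173), and Olfml3, a secreted matrix protein gene, by 2.21 (adjusted p 2.05e-07). Fzd9, a WNT receptor gene, was at 60.3, 114 and 132 CPM at E13.5 and 22.6, 16.3 and 10.8 CPM at E15.5 (log2 change -2.62, SE 0.40, adjusted p 8.7e-05), and E13.5 replicate 1 was again the E13.5 library nearest to E15.5. Lrp4, a co-receptor gene that restrains WNT signals, fell by 2.63 (adjusted p 2.29e-07), and Ctrb1, a chymotrypsinogen gene, by 2.27 (adjusted p 0.00015). Dock10, Megf6, Tspan32 and the histone gene H2ac18 fell by 2.31, 2.16, 2.11 and 2.40 (adjusted p 1.92e-06, 2.65e-07, 5.68e-08 and 1.2e-05).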
